A study of Mus musculus with 161 samples.

Results

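Isolated CTCF peaks are described here, namely autosomal FLAG–CTCF peaks with no other listed peak within 150 kb of their midpoint on either side. The rule was applied to the midpoints of the deposited intervals in mm9 coordinates, the first and last peak of each chromosome being left out, and retained 927 of 48552 autosomal peaks. The whole list holds 49682 intervals, of which 1128 lie on chromosome X and 2 on chromosome Y. FLAG marks a full-length CTCF cDNA in the mouse embryonic stem cell (mESC) line EN133.10, an XY line derived from E14Tg2a. In this line endogenous CTCF is fused to the auxin-inducible degron (AID), the plant F-box protein Tir1 is expressed, and the cDNA is under a TetO promoter driven by Rtta3G. The cells were treated for 2 days with auxin, which degrades endogenous CTCF, and with doxycycline (dox), which induces the transgene. EN133.10 is a single clone, a high-expressing one, which the authors used because its CTCF level was nearest to that of clones with an N-terminal deletion of CTCF. By the study's description the transgene is nevertheless expressed well below the endogenous protein, so the list describes transgenic CTCF in one line and not endogenous CTCF. The peaks were called in each of 2 FLAG ChIP-seq libraries and the overlapping ones were kept, so there is 1 consensus list without a score, a height or a value per library. The list does not give the ChIP-seq depth, no comparison between replicates could be made, and all values below are descriptions of positions and of the sequence at them.

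CTCF is a DNA-binding protein whose zinc fingers read a long, non-palindromic motif, so a bound site has an orientation. In mammalian nuclei cohesin extrudes DNA loops and is halted at CTCF sites, preferentially where the N terminus of CTCF faces the arriving complex, that is between motifs that point toward each other. Clusters of such sites are known to lie at boundaries of topologically associating domains (TADs), and gene-poor regions of mammalian chromosomes are known to hold few of them.

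The 9 isolated peaks below are 4 of the 5 with the largest distance to their nearer neighbour and the most isolated peak of each of the next 5 chromosomes. They are shown because they are the extreme of the class, and the sequence lets the CTCF site be read directly. Each run is the 200 bases of the listed interval on the plus strand of mm9, 5′ to 3′. Capitals mark the best match of 20 bases to a CTCF matrix learnt from chromosome X peaks, whose consensus is GTGGCCAGAAGAGGGCGCCA, where its score exceeds that of 95% of control windows, and a run without capitals has no such match.
chr3:47304090-47304289: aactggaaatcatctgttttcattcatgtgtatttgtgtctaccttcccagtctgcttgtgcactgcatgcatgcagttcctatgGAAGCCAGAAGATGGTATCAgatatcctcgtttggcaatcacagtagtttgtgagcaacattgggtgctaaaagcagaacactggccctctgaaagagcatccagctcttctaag
chr17:39500384-39500583: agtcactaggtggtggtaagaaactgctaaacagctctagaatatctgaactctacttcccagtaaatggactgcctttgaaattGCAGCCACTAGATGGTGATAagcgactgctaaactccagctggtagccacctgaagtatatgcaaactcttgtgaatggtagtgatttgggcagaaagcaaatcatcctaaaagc
chr3:140249421-140249620: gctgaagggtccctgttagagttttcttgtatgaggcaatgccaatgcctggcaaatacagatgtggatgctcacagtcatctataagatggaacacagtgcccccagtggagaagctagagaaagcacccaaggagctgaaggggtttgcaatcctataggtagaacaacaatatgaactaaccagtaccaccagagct
chr2:40916357-40916556: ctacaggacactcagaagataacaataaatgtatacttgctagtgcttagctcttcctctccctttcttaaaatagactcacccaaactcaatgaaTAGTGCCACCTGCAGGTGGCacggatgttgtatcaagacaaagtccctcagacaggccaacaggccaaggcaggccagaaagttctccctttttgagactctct
chr15:17028811-17029010: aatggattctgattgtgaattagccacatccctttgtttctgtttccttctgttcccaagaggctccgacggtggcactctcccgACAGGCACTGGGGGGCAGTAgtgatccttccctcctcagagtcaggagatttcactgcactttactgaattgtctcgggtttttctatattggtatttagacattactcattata
chr12:49231176-49231375: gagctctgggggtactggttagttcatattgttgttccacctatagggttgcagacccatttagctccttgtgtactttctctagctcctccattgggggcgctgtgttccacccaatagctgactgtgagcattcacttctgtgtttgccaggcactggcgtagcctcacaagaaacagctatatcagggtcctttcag
chr14:110139480-110139679: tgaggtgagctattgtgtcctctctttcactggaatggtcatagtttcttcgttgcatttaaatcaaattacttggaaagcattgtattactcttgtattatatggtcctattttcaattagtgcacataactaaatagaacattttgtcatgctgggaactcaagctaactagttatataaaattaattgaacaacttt
chr4:16953943-16954142: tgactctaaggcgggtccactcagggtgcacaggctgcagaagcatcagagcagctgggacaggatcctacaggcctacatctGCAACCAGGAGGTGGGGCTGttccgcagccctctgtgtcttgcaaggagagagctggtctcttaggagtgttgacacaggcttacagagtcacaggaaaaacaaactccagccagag
chr1:110723903-110724102: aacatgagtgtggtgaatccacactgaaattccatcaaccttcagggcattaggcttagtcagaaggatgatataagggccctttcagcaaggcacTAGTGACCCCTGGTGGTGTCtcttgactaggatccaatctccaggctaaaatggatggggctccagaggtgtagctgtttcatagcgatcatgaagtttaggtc

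Of these 9 sequences, 6 carry a matrix match and 3 do not. In chr2:40916357-40916556 and chr1:110723903-110724102 the match lies on the minus strand, so that the run shows the reverse complement of the matrix, and in the other 4 it lies on the plus strand. In chr2:40916357-40916556 the exact core motif described below occurs 2 times, on opposite strands of a palindromic stretch. The orientation of that site is therefore ambiguous. All 9 peaks lacked another listed peak within 1 Mb, as did chr3:77020046-77020245, which the choice by chromosome leaves out.

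The peak chr3:47304090-47304289 had neighbours at 1516 kb and 1346 kb, and the closest coding start was that of Pabpc4l at 1052 kb. It was thus far from genes as well as from other peaks. The peak at chr17:39500384-39500583 had neighbours at 1337 kb and 1431 kb, with 20 coding starts between them. The closest of these starts, that of Gm20516, was 724 kb away. This peak too was thus far from genes, although the span between its neighbours did not lack them. The peak chr3:140249421-140249620 had neighbours at 1288 kb and 1245 kb and no matrix match. The peak chr2:40916357-40916556, with neighbours at 1230 kb and 1601 kb, lay in an intron of Lrp1b, which encodes a very large receptor of the LDL receptor family. Of these 4 it was the only one inside a gene, and it was the single listed peak in the 2058 kb of Lrp1b.

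The most isolated peak of each of the 19 autosomes had its nearer neighbour at 555 kb or more. None of the 19 lay in a protein-coding gene, 15 had a matrix match, and in 13 the nearest coding start was more than 500 kb away. Among them, chr15:17028811-17029010 lay 321 kb from the start of Cdh9, which encodes a cadherin, a calcium-dependent adhesion protein. The peak chr14:110139480-110139679, without a match, lay 826 kb from Slitrk1, which encodes a neuronal transmembrane protein. On chromosome 13, chr13:82865463-82865662 lay 777 kb from Mef2c, a transcription factor of muscle and neurons. The nearest to a coding start were chr7:55242206-55242405 at 4.64 kb from Mrgpra4, chr18:51272456-51272655 at 4.84 kb from Prr16 and chr9:38761718-38761917 at 21.4 kb from the olfactory receptor gene Olfr933.

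Isolated peaks made up 1.91% of autosomal peaks (95% Wilson interval 1.79 to 2.03%, which covers counting error only). That is 0.375 per Mb, or 1 in 2.67 Mb, against 19.6 listed peaks per Mb. The distance between neighbouring autosomal midpoints had a median of 14.9 kb and quartiles of 3.50 and 44.2 kb. Distances over 150 kb were 6.86% of all (3331 of 48533) but covered 1272 Mb, which is 52.8% of the sequence between the first and last peaks. Consecutive distances of this kind are needed for an isolated peak. Of the 3331, 336 had an isolated peak at both ends, 1182 at a single end, and 1813 at neither.

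The nearer neighbour of an isolated peak lay at a median of 234 kb (quartiles 181 and 352 kb, range 150 to 1712 kb). The farther neighbour lay at a median of 493 kb (quartiles 313 and 792 kb, maximum 7122 kb). The largest value is not all sequence, since 7000 kb of the span around that peak on chromosome 7 are undetermined bases of the assembly. Counting only determined bases, 924 of the 927 peaks were still more than 150 kb from both neighbours, and 879 had no undetermined base between them. The classes became smaller with distance. There were 343 isolated peaks with the nearer neighbour at 150 to 200 kb, 276 at 200 to 300 kb, 197 at 300 to 500 kb, 100 at 500 to 1000 kb and 11 beyond. Isolated peaks were thus most numerous in the class next to the threshold, although most lay beyond 200 kb.

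**Figure D1:**
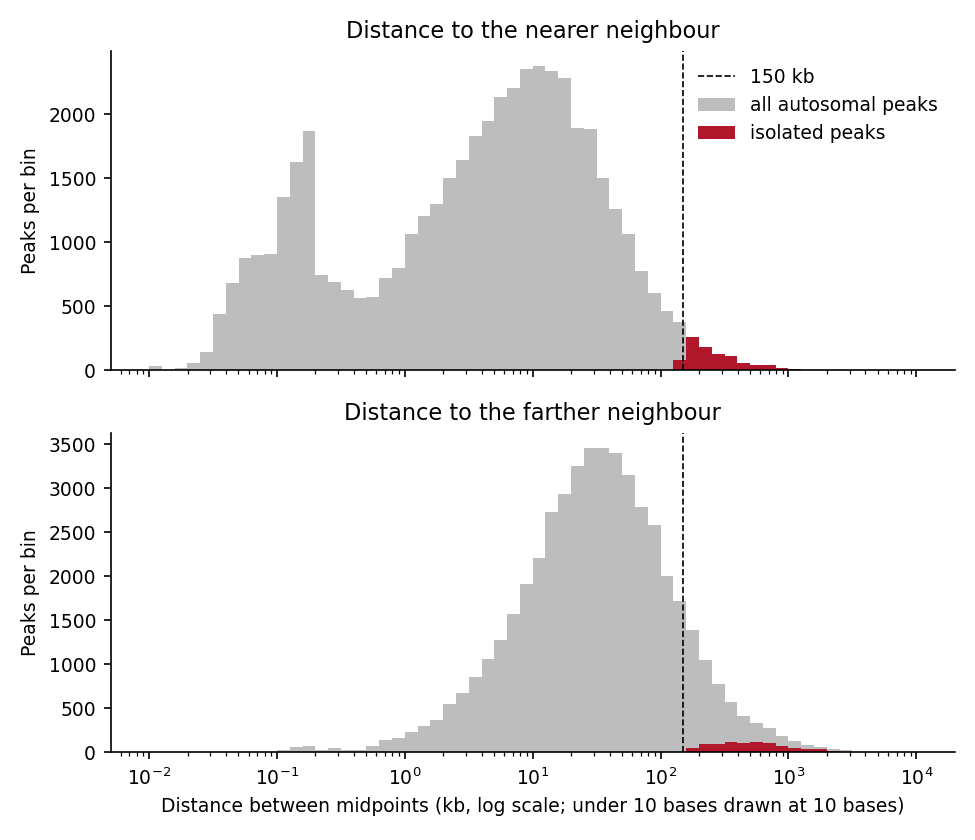
Number of autosomal peaks by distance to the nearer (top) and farther (bottom) neighbouring midpoint in kb, on a log scale, for all peaks (grey) and isolated peaks (red), with the 150-kb threshold dashed. Isolated peaks form the right tail of the upper panel, and a separate hump of grey peaks lies under 0.2 kb, where intervals overlap.

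Peaks on both sides of the threshold were alike in number. The 3 isolated peaks closest to it had nearer neighbours at 150.1 kb (chr16:65815171-65815370), 150.2 kb (chr13:17374131-17374330) and 150.3 kb (chr6:138262878-138263077). The 3 peaks just outside, with the farther neighbour beyond 150 kb, had theirs at 149.98 kb (chr7:90179283-90179482), 149.96 kb (chr2:57401338-57401537) and 149.9 kb (chr16:75193733-75193932). In the 10 kb on either side, 86 peaks were counted as isolated and 87 were not.

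The distances were often unequal. The farther was 1.73 times the nearer in the median (quartiles 1.30 and 2.54), over 5 times in 62 peaks and under 1.2 times in 156. The nearer neighbour was on the left of 472 peaks and on the right of 455. Isolated peaks were thus seldom midway between their neighbours, with no marked preference for a side. The rule sets a lower bound on the nearer distance, which limits the ratio. No ratio is given here for other peaks, so unequal distances are not shown to be particular to isolated ones.

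Isolated peaks were found on all 19 autosomes, from 20 on chromosome 19 to 83 on chromosome 1. As a share of the peaks of a chromosome they were highest on chromosome 3, with 78 of 2197 (3.55%, interval 2.85 to 4.41%). Chromosome 12 followed with 63 of 1936 (3.25%, interval 2.55 to 4.14%) and chromosome 14 with 58 of 1829 (3.17%, interval 2.46 to 4.08%). These 3 do not differ beyond their intervals. The lowest shares were on chromosome 11, with 34 of 3783 (0.899%, interval 0.644 to 1.25%), chromosome 17, with 21 of 2239 (0.938%, interval 0.614 to 1.43%), and chromosome 9, with 34 of 2843 (1.196%, interval 0.857 to 1.67%). The intervals of the highest and the lowest 3 do not overlap, but these chromosomes were picked by the same shares. The intervals treat peaks as independent and cover counting error only, and no test was run.

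The order of the chromosomes followed their density of peaks in broad terms, as it must in part, since the same positions give both. Chromosome 3 had the fewest listed peaks per Mb (13.8) and chromosome 11 the most (31.0). The 6 sparsest chromosomes (3, 14, 16, 18, 13 and 12) held 22.1% of the peaks and 32.5% of the isolated ones. The 6 densest (11, 5, 19, 17, 9 and 7) held 36.4% and 22.3%. Chromosome 16 stood out among the sparse ones, with 15.4 peaks per Mb and a share of 1.85%. Per Mb of sequence, isolated peaks ranged from 0.220 on chromosome 17 to 0.520 on chromosome 12. On chromosome X, which the rule leaves out and which is single in these XY cells, 89 of 1128 peaks met the same distances (7.89%, interval 6.46 to 9.61%), with 6.77 listed peaks per Mb.

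**Figure D2:**
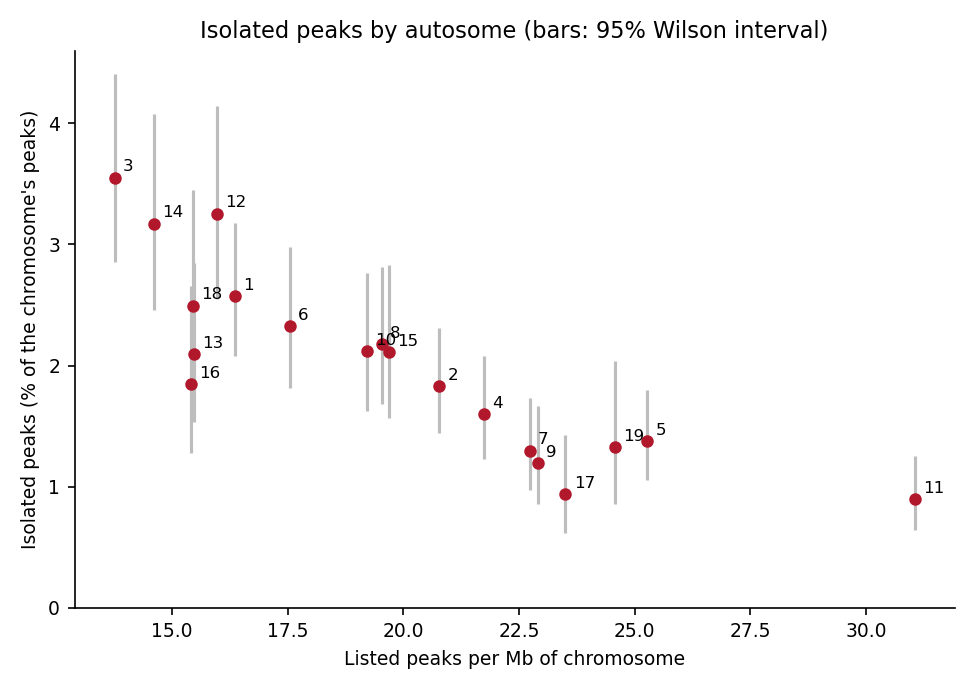
Isolated peaks as a percentage of the peaks of each autosome (vertical, with 95% Wilson intervals) against listed peaks per Mb (horizontal), each point labelled by its chromosome. Chromosome 3, with 13.8 peaks per Mb, is at the upper left and chromosome 11, with 31.0, at the lower right.

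Along the chromosomes, isolated peaks were sparser toward the distal end. When each chromosome was cut into 10 equal parts from the start of its sequence, the first part held 95 isolated of 2502 peaks (3.80%). The fourth held the most, 117 of 4461 (2.62%), and the last the fewest, 54 of 7736 (0.698%). Mouse autosomes are telocentric, so the start of the sequence is the centromeric end. The last part held more listed peaks than the first and fewer isolated ones, but the change was not steady. Isolated peaks numbered 106 in the second part and 110 in the third. The parts were cut over the full length, undetermined bases included, and the counts were not corrected for these.

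Of 258 windows of 10 Mb, 31 held no isolated peak and 24 held 8 or more. The 24 windows together held 224. The fullest were 60 to 70 Mb on chromosome 12, with 12 isolated of 40 listed peaks, and 100 to 110 Mb on chromosome 6, with 12 of 75. In 110 to 120 Mb on chromosome 1, 10 of 26 listed peaks were isolated. Successive isolated peaks were 1277 kb apart in the median (quartiles 536 and 2936 kb). The longest stretch without any ran for 33.5 Mb on chromosome 9 and contained 1051 listed peaks, so it did not lack CTCF peaks.

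**Figure D3:**
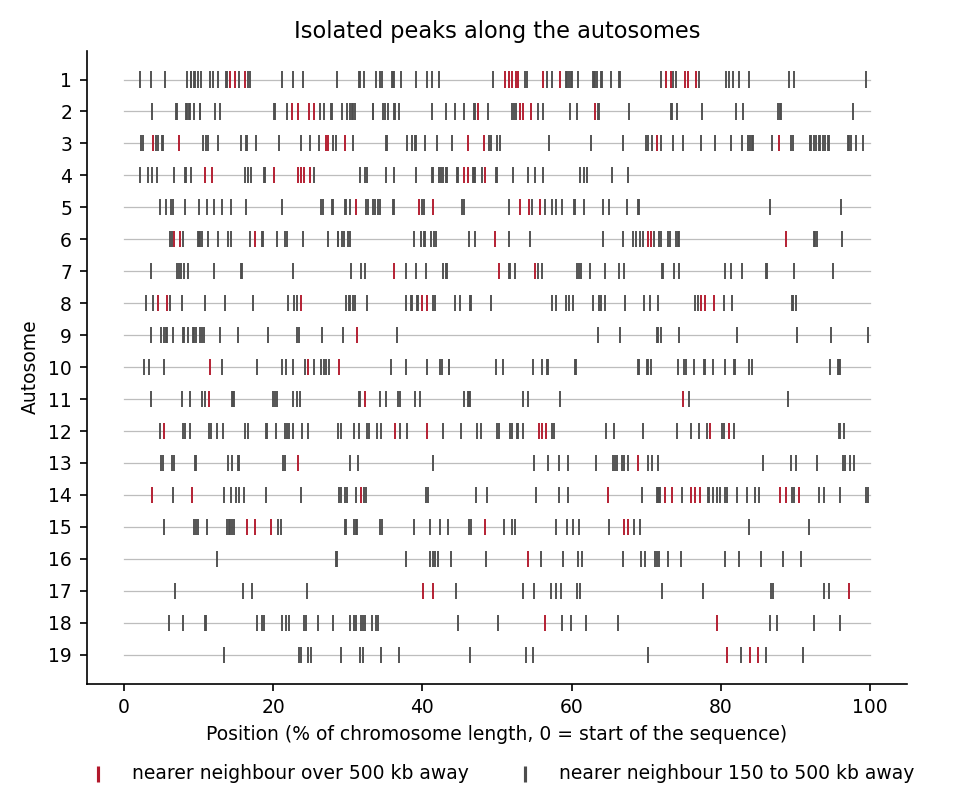
Each tick is an isolated peak, drawn at its position as a percentage of the length of its autosome, in red where the nearer neighbour is over 500 kb away (111 peaks) and in dark grey otherwise. Ticks gather in groups, as on chromosomes 12 and 14, and thin out toward the right end, where the last of 10 equal parts holds 54.

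Some isolated peaks were neighbours of each other. An isolated peak was directly next to another in 531 of 927 cases (57.3%), with 390 having such a neighbour on a single side and 141 on both. Part of this follows from the rule, since each neighbour of an isolated peak already has 1 distance over 150 kb. Of all 3331 distances over 150 kb, 336 joined 2 isolated peaks, 1182 had one at a single end and 1813 had none. Whether isolated peaks adjoin more often than the rule implies was not tested. In all there were 591 runs of consecutive isolated peaks. Of these, 396 were single peaks, 121 were pairs, and 21 had 5 or more members and together held 112 peaks.

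The longest run lay on chromosome 15 between 14348396 and 18149961, with 7 isolated peaks over 3.80 Mb. Steps between them ran from 210 to 1769 kb, 6 of the 7 had a matrix match, and the coding starts between the flanking neighbours were those of Cdh9 and Cdh10, both cadherin genes. A run of 7 on chromosome 18, between 27496343 and 30205860, covered 2.71 Mb, with 4 matches, all on the minus strand. The single coding start there was that of Pik3c3, the class III phosphatidylinositol 3-kinase of autophagy and endosomes. Another 3 runs had 6 members each, of which 6 had a match on chromosome 1, 5 on chromosome 3 and 2 on chromosome 9. The widest of them, on chromosome 1 between 115144015 and 118374575, covered 3.23 Mb and held Cntnap5a, a contactin-associated protein of the neurexin family. The 3 runs described are series of single peaks with 1 or 2 coding starts between the flanking neighbours.

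Counts over wider windows come from the same positions as the rule, which keeps the inner 150 kb on either side empty, so they are given as a description. Within 500 kb of its midpoint an isolated peak had a median of 4 other peaks (quartiles 2 and 8), against 34 (quartiles 21 and 53) for other autosomal peaks. At 500 to 1000 kb, outside the distance that the rule fixes, the medians were 9 (quartiles 3 and 15) and 29 (quartiles 17 and 46). The most crowded isolated peak had 47 others within 500 kb, while 111 isolated peaks had none.

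The neighbours that were not isolated themselves numbered 1182. Leaving out first and last peaks, 1180 of them had the second neighbour within 150 kb, which follows from the rule. Of the 1180, 327 (27.7%) had a further peak within 10 kb, which can lie on a single side only. Among the 3621 other peaks with a distance over 150 kb on a single side, 1147 (31.7%) did.

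For sequence and gene context, which the rule did not use, isolated peaks were set beside 4801 gap-edge peaks, with a neighbour beyond 150 kb on a single side, and 42786 remaining peaks, with both neighbours nearer. These are shares of 1 list, and peaks are not replicates, so no test was run. The intervals given are 95% Wilson intervals and cover counting error only. Listed intervals of the other classes can overlap a neighbour and share its motif, whereas those of isolated peaks cannot. The comparison was not repeated with overlapping peaks merged, so the effect on motif shares and centring was not tested.

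The CTCF motif was present at isolated peaks about as often as elsewhere when it was scored with the matrix. A match was found in 754 of 927 isolated peaks (81.3%, interval 78.7 to 83.7%), in 81.9% of gap-edge peaks (interval 80.8 to 83.0%) and in 79.2% of remaining peaks (interval 78.8 to 79.5%). Control windows of 200 bases located 20 kb to the right, without a listed peak within 1 kb, matched in 1.30% for isolated, 3.26% for gap-edge and 5.30% for remaining peaks. The interval for isolated peaks includes the values of both other classes.

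By the exact CTCF core motif, searched on both strands in the same 200 bases without allowing a mismatch, the share was lower. It occurred in 419 isolated peaks (45.2%, interval 42.0 to 48.4%), in 47.6% of gap-edge peaks (interval 46.1 to 49.0%) and in 51.2% of remaining peaks (interval 50.8 to 51.7%). It occurred in 0.756%, 1.75% and 3.31% of their control windows. Among matched peaks, the median matrix score was 16.9 for isolated, 17.2 for gap-edge and 17.8 for remaining peaks. Isolated peaks thus held the exact core less often than the remaining ones, beyond their counting intervals. Their interval overlapped that of gap-edge peaks, and the scores differed little. GC content, which differs between the classes as given below, also affects how often these letters occur, and its part was not tested. Nor was that of overlapping peaks, which only the other classes contain.

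The match was centred. Within 15 bases of the midpoint lay 93.5% of the matches of isolated peaks, 89.8% of those of gap-edge peaks and 85.8% of those of remaining peaks, with a median offset of 6 bases in each. Over the distance classes of isolated peaks, 81.6% had a match at 150 to 200 kb, 82.6% at 200 to 300 kb, 82.2% at 300 to 500 kb and 76.0% at 500 to 1000 kb. Of the 11 peaks beyond, 8 had one.

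Isolated peaks lay in AT-rich sequence. In the surrounding 10 kb the median GC content was 39.4% (quartiles 37.5 and 41.4%), against 42.4% (quartiles 40.0 and 44.9%) for gap-edge and 46.6% (quartiles 44.1 and 49.6%) for remaining peaks. The upper quartile of isolated peaks was thus below the lower quartile of remaining peaks. In the 200 bases themselves the medians were nearer, at 45.5%, 46.5% and 50.0%. CpG dinucleotides, whose methylation is known to impede CTCF at some sites, averaged 2.80 per isolated peak, 4.00 per gap-edge peak and 5.05 per remaining peak, and 20.7% of isolated peaks had none, against 9.26% of remaining peaks.

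Of the isolated peaks, 670 (72.3%, interval 69.3 to 75.1%) were intergenic in GENCODE vM1, compared with 56.8% of gap-edge and 45.9% of remaining peaks. Introns of protein-coding genes held 211 (22.8%), coding exons 10, UTRs 15 and other exons of coding genes 1. Non-coding genes or pseudogenes held 20. The nearest coding start was at a median of 236 kb (quartiles 68.1 and 457 kb), against 60.4 kb for gap-edge and 17.5 kb for remaining peaks. For 204 isolated peaks (22.0%) it was over 500 kb away, as it was for 0.339% of remaining peaks.

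**Figure D4:**
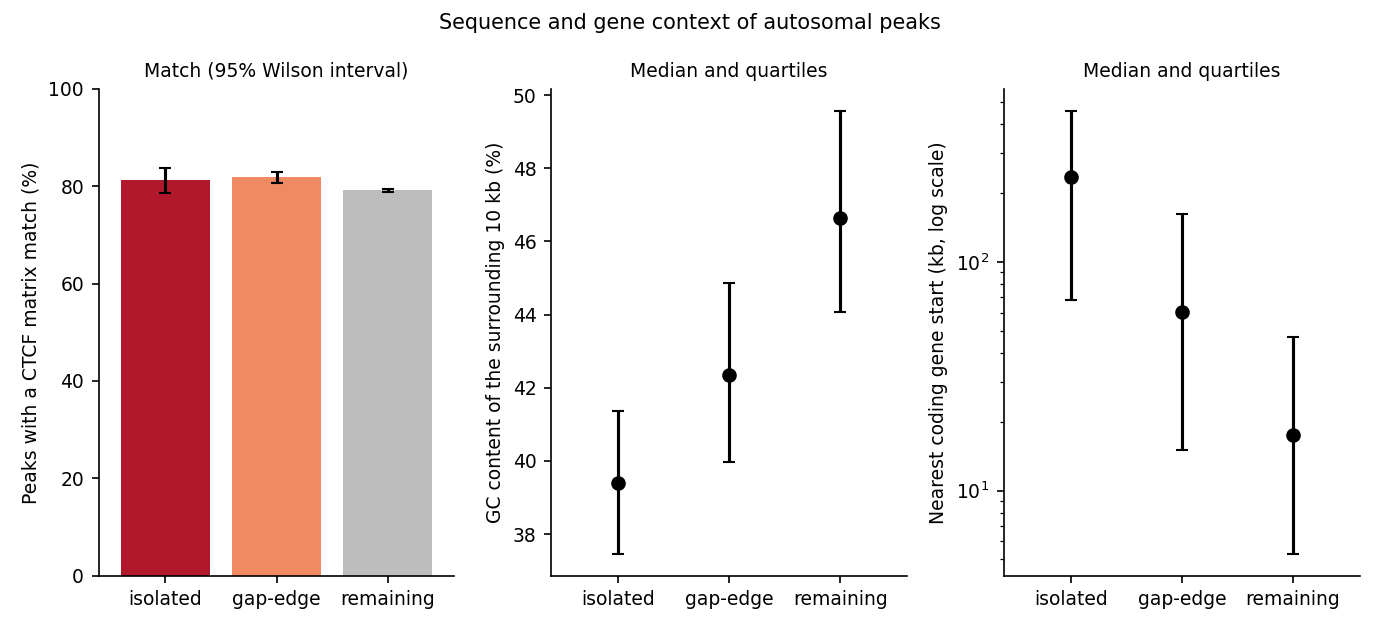
Share of peaks with a CTCF matrix match (left, %, with 95% Wilson intervals), GC content of the surrounding 10 kb (middle, %) and distance to the nearest protein-coding gene start (right, kb, log scale), as medians with quartiles, for isolated, gap-edge and remaining autosomal peaks. The match share is close to 80% in the 3 classes, while GC content falls to 39.4% and the distance rises to 236 kb in isolated peaks.

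A small group of isolated peaks lay at promoters. Within 1 kb of a coding start were 42 (4.53%, interval 3.37 to 6.07%), against 7.58% of gap-edge and 11.5% of remaining peaks. They had a median GC content of 66.25% and 14 CpG in 200 bases, where the other 885 had 45.0% and 2. A matrix match was present in 15 of the 42 (35.7%) and in 83.5% of the 885. In remaining peaks the corresponding shares were 51.3% and 82.8%. Promoter peaks without a match were therefore found in both classes. Examples, chosen after their values were seen, are Dock4, which encodes an activator of Rac GTPases, with the start 18 bases from the midpoint, 26 CpG and no match, and Nbea, a protein of vesicle trafficking in neurons, with the start at 22 bases, 24 CpG and a match.

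Protein-coding genes with an isolated peak numbered 211, and many were long. The gene around an intronic isolated peak had a median length of 458 kb (quartiles 223 and 867 kb). For gap-edge peaks it was 212 kb and for remaining peaks 72.5 kb. These medians are taken over peaks, and a longer gene offers more positions for a peak. The median over autosomal coding genes, 15.5 kb, counts each gene once and is not comparable with them. Of the 211, 75 exceeded 500 kb, out of 188 autosomal coding genes of that length. Autosomal coding genes of any length numbered 21418, and these counts were not corrected for gene length. The rule does not require the distances to lie within the gene, and 45 of the 211 were shorter than 150 kb. For Mdga2 a 0.423-kb entry of the same name was counted, although its isolated peak lay 369 kb from the Mdga2 start. The count of 45 thus wrongly includes this gene, and that of 75 may omit it.

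Among these genes 4 held 3 isolated peaks each and 20 held 2. The 4 were named after their values were seen. Cntnap5a (897 kb) is related to neurexins, and its 3 isolated peaks were the only peaks listed in it. Grm7 (922 kb), a metabotropic glutamate receptor, had 3 isolated of 4 listed peaks. Cntn5 (1244 kb), a contactin of axons, had 3 of 8, and Pcdh15 (1550 kb), a protocadherin of the hair-cell tip link, had 3 of 10. In 9 further genes the only listed peaks were 2 isolated ones. These were Cntnap5c, Foxp2, Galnt13, Hs3st4, Inpp4b, Lingo2, Lrrc4c, Sema5a and Vps13b, among them a transcription factor (Foxp2), a glycosyltransferase (Galnt13) and a lipid phosphatase (Inpp4b).

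The sequence from one neighbour to the other of all isolated peaks formed 591 blocks of 708 Mb, which is 28.6% of the length of the autosomes. These blocks held 2041 of 21418 protein-coding starts (9.53%), or 2.88 per Mb, against 10.98 per Mb in the rest of the autosomes. In 330 cases (35.6%) no coding start lay between the neighbours of an isolated peak, in 288 there was 1, and in 49 there were 10 or more.

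Chemosensory receptor genes were frequent in these blocks, which held 9.53% of all protein-coding starts. Olfactory receptor genes (Olfr) had 504 of 1106 starts in the blocks (45.6%), and vomeronasal receptor genes (Vmn1r and Vmn2r) had 166 of 327 (50.8%). Beta-defensin genes had 9 of 41 (22.0%) and zinc finger genes named Zfp 18 of 365 (4.93%). Ribosomal protein genes had 11 of 138 (7.97%), which is near the share of all starts. Of keratin (Krt) and histone (Hist) genes, 0 of 51 and 0 of 67 were in the blocks. The peak with the most starts between its neighbours, chr7:23948618-23948817, had 88, of which 48 were vomeronasal receptors. The next, chr2:88686412-88686611 and chr2:86304954-86305153, had 85 and 84, of which 84 each were olfactory receptors. Receptor genes of these families lie in tandem arrays. Many of the receptor starts counted therefore fall between the neighbours of a few isolated peaks and are not independent of each other.

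Orientation was read from the strand of the matrix match. Isolated peaks with a match pointed along the plus strand in 391 and along the minus strand in 363 cases (51.9% plus, interval 48.3 to 55.4%). Of 1518 distances next to an isolated peak, 1008 had a match at both ends. Matches were convergent, pointing toward each other, in 275 of these (27.3%, interval 24.6 to 30.1%) and divergent in 182 (18.1%). In the 212 between 2 isolated peaks, 54 were convergent (25.5%, interval 20.1 to 31.7%) and 42 divergent (19.8%).

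Distances over 150 kb with no isolated peak at either end were convergent more often, in 430 of 1212 (35.5%, interval 32.8 to 38.2%), and divergent in 15.3%. For distances of 1 to 150 kb the shares were 22.5% (interval 22.0 to 23.0%) and 25.2%. The interval of distances next to an isolated peak thus lay between those of the other 2 sets and overlapped neither. For the part of them between 2 isolated peaks, the interval (20.1 to 31.7%) contained that of distances of 1 to 150 kb. The same peak can stand at both ends of successive distances, so these are not independent, and no test was run.

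**Figure D5:**
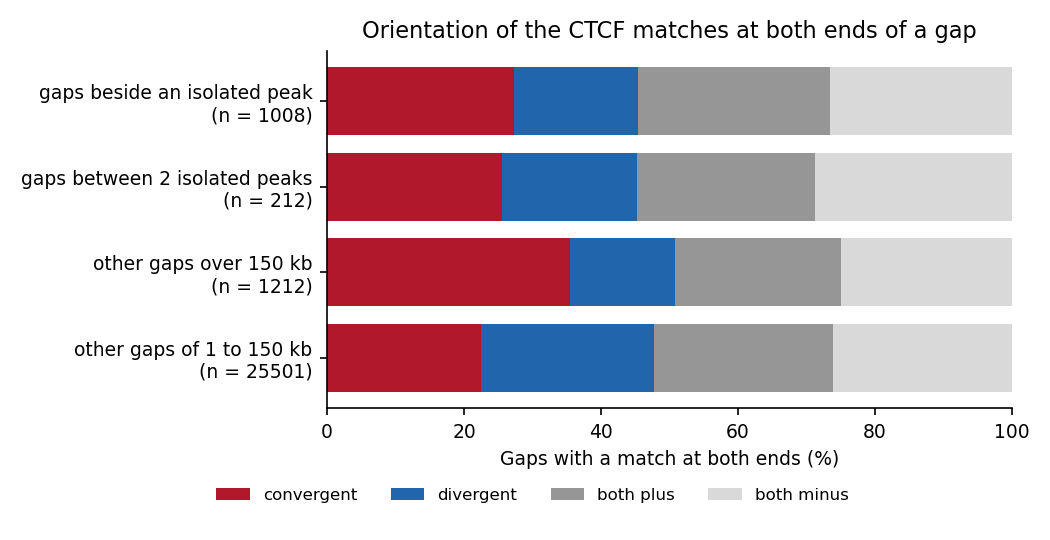
Orientation of the CTCF matches at both ends of a distance between neighbouring autosomal peaks, as a percentage of the distances with 2 matches (n beside each bar), in 4 sets. The convergent share (red) is 27.3% next to an isolated peak, 35.5% for other distances over 150 kb and 22.5% for distances of 1 to 150 kb.

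The count also depends on how the list gives its intervals. All intervals but 1 are 200 bases wide, and 4548 neighbouring autosomal midpoints (9.37%) are under 200 bases apart, so that the intervals overlap. In 8 cases a row repeats another exactly. When midpoints within 1 kb were taken as 1 peak, 1006 of 41378 autosomal peaks were isolated, of which 927 consisted of 1 interval, 74 of 2 and 5 of 3. The 79 made of 2 or 3 intervals are not among the 927, since another interval lies within 1 kb of each.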

How the data were processed

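FLAG ChIP-seq was performed by the authors on EN133.10 cells treated with auxin and dox for 2 days. Per the methods, reads were trimmed with fastq-mcf and aligned to mm9 with Bowtie2, and those with a mapping quality of 30 or more were kept with SAMtools. Peaks were called per library with GEM, those overlapping by at least 1 base in 2 libraries were retained, and blacklisted intervals were removed. The deposited list gives start and end only. The 182 matrices of chromosome X contacts (5C) hold no autosomal value and were not used.

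Midpoints, distances and counts were computed in Python 3.11.15 with pandas 2.3.3. Sequence and genes came from NCBIM37 (mm9) and GENCODE vM1. Context was assigned at the midpoint, in the order coding exon, UTR, other exon, intron, other gene, intergenic. The matrix (20 bases) was started from 579 motif matches on chromosome X and refined in 5 rounds to 976 sites. A match is a score over 9.34, exceeded by 5% of 44903 autosomal control windows. The rule and motif search were tested on simulated data.

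Peaks named were the 5 most isolated, of which 1 is not reported here, the most isolated of each autosome, 3 on each side of the threshold, the 3 longest runs and the 3 highest and lowest chromosomes. The members and the gene families were chosen with earlier results of these data known. The matrix, the distance classes and the families were added after the list had been examined.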

Additional observations from a re-analysis of the deposited data

How the results depend on the processing

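With a threshold of 100 kb, 1686 peaks were isolated (3.47%), with median distances of 160 kb (nearer) and 344 kb (farther), and shares by autosome from 1.82% (chromosome 11) to 5.85% (chromosome 14). With 200 kb, there were 584 (1.203%), with medians of 309 and 621 kb and shares from 0.492% (chromosome 9) to 2.27% (chromosome 12), so the chromosomes at both extremes depended on the threshold. With intervals within 1 kb merged, the share was 2.43% and the highest by autosome 4.59%. Within 10 kb it was 3.91% (1110 peaks), with shares from 1.87 to 6.86% by autosome. Without peaks beside a distance over 1 Mb, 770 remained (1.59%), with medians of 216 and 415 kb. Distances between edges (926 peaks), first and last peaks kept (934) and identical rows listed once (927, added once the list had been read) left the values within their intervals. The exact motif was found in 44.1% within 50 and 45.6% within 150 bases of the midpoint, and a matrix match, also added later, in 81.3%.

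The median width of isolated peaks was 200 bases under every setting. No paired analysis was possible because the list is 1 consensus of 2 libraries. For the same reason no library was left out. The list gives no score, so no stricter peak threshold was tried, nor does it give the depth, and a site missed in either library is not counted here.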
